A study of Homo sapiens with 32 samples.

Results

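The comparison described here set cells expressing a MYC deletion mutant labelled d3b beside cells expressing full-length MYC (WT). It uses 8 of the 32 RNA sequencing libraries of the series, 4 of d3b and 4 of WT, chosen by the group named in the sample labels. The host cells are SH-EP/TET21/N (TET21), an established human neuroblastoma line derived from SH-EP that holds a MYCN transgene repressible by doxycycline. Per the labels, passages were 10 to 15 and doxycycline was present at 1 µg/mL over 7 days, although the protocol text speaks of the WT-MYC cells alone. Both groups carry an ectopic MYC and the cells' own MYC gene, and differ in the deletion labelled MYC 3b. The segment is not described in the labels. From its name it was taken to be MYC box IIIb. The other groups of the same host line, 4 libraries each, carry an empty vector (EV) or the deletions d0x, d1, d2, d3a and d4. Replicates are numbered 4 to 7. Nothing in the labels tells whether each was its own culture, and the calls may therefore rest on technical spread.

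MYC is a transcription factor that binds DNA as a dimer with MAX, chiefly at the E-box CACGTG. Outside its DNA-binding domain it has short conserved segments, the MYC boxes, each of which is a contact surface for other proteins. MYC box IIIb is known as the surface for WDR5, a scaffold protein of the KMT2 histone methyltransferase and NSL acetyltransferase complexes. WDR5 is found at many promoters, those of ribosomal protein genes among them.

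The authors' deposited tables compare groups and are the source of all values. For each gene they hold a log2 posterior fold of d3b over WT, with the probability under a Bayesian model that expression differs (PPDE). Genes with a PPDE of at least 0.95 are called here, and rose or fell, the authors' limit for a false discovery rate below 0.05. One table holds 58317 genes (the fit of all genes) and the other the 9368 genes given a MYC binding site (the fit of bound genes), which was mapped in WT-MYC cells in a single experiment. The tables hold no value per library, so depths, SDs and standard errors are unknown and a fold is printed without an error. In the fit of all genes 37690 genes had a value in d3b against WT, and in the fit of bound genes 9170.

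MYC itself did not differ between the groups by a call. Its log2 fold of d3b over WT was -0.09 (PPDE 0.00012) in the authors' deposited table, and -0.17 in the fit of bound genes. A fold over the whole gene adds up ectopic and endogenous transcripts and does not show the deletion. In WT over EV MYC stood at 0.98, also without a call (PPDE 0.348), so a missing call does not show equal MYC levels. In the authors' deposited table the same gene stood between 0.46 and 0.68 in the other 5 mutants over WT, called in none. WDR5 stood at 0.05 (PPDE 0.00011) and MYCN at 0.18 in the authors' deposited table, neither called. Of the 6 defining markers of adrenergic neuroblastoma 4 had a value in d3b against WT, and TH, as a gene without reads, had none in the authors' deposited table. The mesenchymal markers SNAI2, TWIST1, PRRX1, FOSL1, NOTCH2 and VIM all had values in the authors' deposited table, from -0.08 to 0.13, none called.

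In d3b against WT 36 genes were called in the authors' deposited table, 0.0955% of those tested. Of these 28 rose (0.0743%) and 8 fell (0.0212%). Among 16312 protein-coding genes 32 were called (0.196%), 25 risen (0.153%) and 7 fallen (0.0429%). Among the 28536 tested genes that the bound table lacks, 14 were called (0.0491%), 11 risen (0.0385%) and 3 fallen (0.0105%). Large changes were few: 5 risen and 2 fallen genes had an absolute log2 fold of at least 1, and 21 of the 28 risen genes were under 0.4. The named large changes were falls of the secreted neuronal pentraxin NPTX1 and the heparan sulfate sulfotransferase HS6ST2, and rises of the cancer-testis gene MAGEA11, the matrix protease ADAMTS9 and the collagen COL12A1. Of the tested genes 98.8% had a PPDE under 0.01, and 39 genes lay between 0.50 and the limit. In the same table the other mutants had 214 (d0x, 0.559%), 45 (d1, 0.119%), 554 (d2, 1.45%), 16 (d3a, 0.0419%) and 420 (d4, 1.11%) called genes over WT, and WT had 1876 (4.91%) over EV. All mutants were compared with the same WT libraries, and the difference between these counts was not tested.

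The direction of the calls depended on which of the authors' fits was read. In the fit of bound genes 12 genes were called, 0.131% of 9170, with 2 risen (0.0218%) and 10 fallen (0.109%). Over the 9154 genes with a value in both fits, the fit of all genes called 22 (0.240%), 17 risen (0.186%) and 5 fallen (0.0546%). Only 2 genes, PYGL and ITGA2, were called in both fits, and both fell. For the same 9154 genes the log2 fold was higher in the fit of all genes by a median of 0.082 (quartiles 0.0756 and 0.0871), so that their median was 0.09 there and 0.01 in the fit of bound genes. The 17 risen genes with values in both fits had folds of 0.13 to 0.35 in the first fit and of 0.04 to 0.27 in the second, where their highest PPDE was 0.145. They stayed above 0 in both fits, 17 of 17, but their calls ended. All 5 fallen genes had the same sign in both fits. The median offset of 0.082 is smaller than the size of each of these folds in the fit of all genes. Agreement in sign was therefore nearly fixed in advance and does not support the calls. How libraries were scaled in either fit is not given in the sources used here, and the part of the scaling in these calls was not tested.

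**Figure D1:**
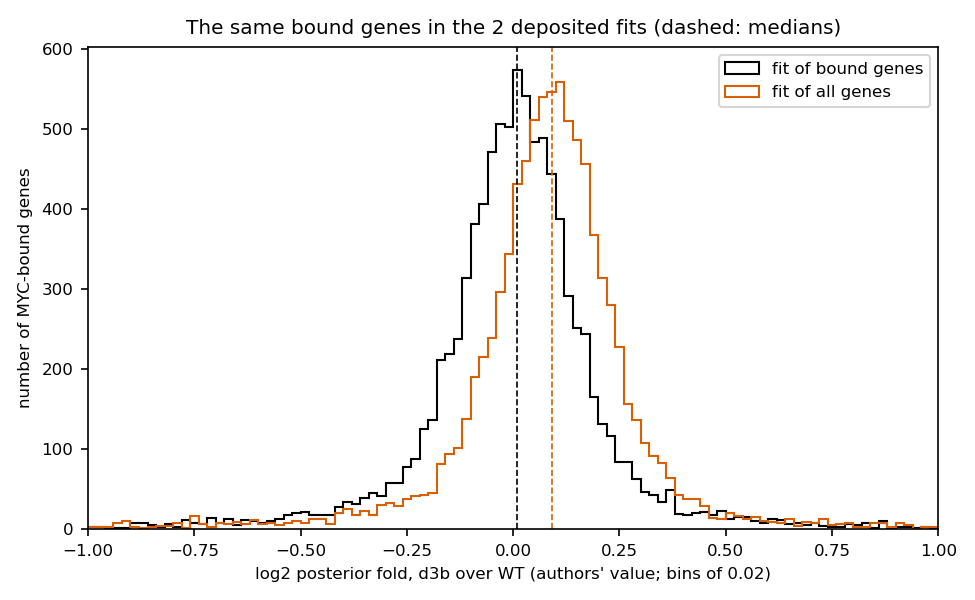
Histogram of the log2 posterior fold of d3b over WT (horizontal axis, bins of 0.02) for the 9154 MYC-bound genes with a value in both deposited fits, with the number of genes on the vertical axis; 217 genes have a fold beyond 1 in either fit, outside the axis there. The curve of the fit of all genes (orange, median 0.09) has the same shape as that of the fit of bound genes (black, median 0.01) and lies to its right.

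Promoters of 3 called MYC-bound genes are shown as examples that hold a motif: RPL7L1 fell, ALDH18A1 rose, and ITGA2 fell in both fits. Most promoters of the called MYC-bound genes hold neither motif, so the 3 do not stand for the others. Each run covers 220 bases, from 250 to 31 bases before the gene's start, in the direction of transcription, from RefSeq on GRCh38.p14. Capitals mark the E-box CACGTG, or the variant CACGCG on either strand, which reads CGCGTG on the other.
RPL7L1, chr6:42879366-42879585, plus strand: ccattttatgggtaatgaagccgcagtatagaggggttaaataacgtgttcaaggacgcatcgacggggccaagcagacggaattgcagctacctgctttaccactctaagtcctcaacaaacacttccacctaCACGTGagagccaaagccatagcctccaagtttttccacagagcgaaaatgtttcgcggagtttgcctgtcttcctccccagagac
ALDH18A1, chr10:95656742-95656961, minus strand: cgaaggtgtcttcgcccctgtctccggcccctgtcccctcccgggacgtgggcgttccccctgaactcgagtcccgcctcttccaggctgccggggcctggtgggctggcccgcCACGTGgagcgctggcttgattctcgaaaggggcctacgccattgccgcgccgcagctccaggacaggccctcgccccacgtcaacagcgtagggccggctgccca
ITGA2, chr5:52989102-52989321, plus strand: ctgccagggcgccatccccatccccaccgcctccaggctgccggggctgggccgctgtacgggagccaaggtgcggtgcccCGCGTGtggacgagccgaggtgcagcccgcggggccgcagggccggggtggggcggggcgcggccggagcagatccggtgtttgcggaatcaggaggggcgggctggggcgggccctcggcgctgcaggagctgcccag

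The E-box lies 116 to 111 bases before the start of RPL7L1 and 136 to 131 bases before that of ALDH18A1, and the variant 169 to 164 bases before that of ITGA2. Of the 32 MYC-bound genes called in either fit, 24 had a promoter in the RefSeq table, with 34 promoters in all. CACGTG, which reads the same on both strands, was present in 6 of the 34 (17.6%), against 5.40% of all 35116 promoters of that length and 7.43% of the 10558 promoters of genes in the bound table. The 6 promoters belonged to RPL7L1, ALDH18A1, PPIH, SUGP2, STARD13 and TRABD2A. CACGCG on either strand was present in 3 of the 34 (8.82%), against 8.46% of all promoters and 14.4% of those of bound genes. The patterns were searched independently of each other, and a match describes letters and not binding.

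The 8 genes that fell in the fit of all genes are described one by one. NPTX1, whose product is released at synapses, had the deepest fall, to -2.21 in the authors' deposited table (PPDE 1.00). In the other mutants over WT the authors' deposited table put it at -6.38 (d0x), -2.75 (d1), -4.42 (d2), -3.36 (d3a) and -4.30 (d4), and at 5.34 in WT over EV, called each time. The d3b fold was thus the smallest of 6 falls against the same WT libraries. The d3b over WT and the WT over EV folds of NPTX1 sum to 3.13. No deposited comparison sets d3b beside EV, so such a sum has no PPDE and was not tested. HS6ST2, which adds sulfate to heparan sulfate chains, fell to -1.50 in the authors' deposited table. Beside d3b, the authors' deposited table called it in d0x over WT at -1.51 and in WT over EV at 1.44, which sums with d3b to -0.06.

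PYGL, the liver form of glycogen phosphorylase, fell to -0.80 in the fit of all genes and to -0.88 in that of bound genes (PPDE 1.00 in both of the authors' deposited tables). In the other 5 mutants the authors' deposited table gave it folds of -0.21 to 0.02, none called. In WT over EV it was called at 0.40 (PPDE 0.975). ITGA2, the collagen-binding integrin alpha 2 subunit, fell to -0.46 and -0.54 in the same 2 fits of the authors' deposited tables. WT over EV stood at -0.91 for ITGA2 without a call (PPDE 0.906) in the authors' deposited table. MATN3, the matrix protein matrilin-3, fell to -0.62 in d3b in the authors' deposited table and rose to 0.87 in d2 over WT. SNHG15, a noncoding host of a small nucleolar RNA, fell to -0.70 in the authors' deposited table, and stood at -0.77 with a PPDE of 0.642 in the fit of bound genes. The authors' deposited table also called SNHG15 in d2 over WT at -0.63 and in WT over EV at 0.68.

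The ribosomal protein gene RPL24 fell to -0.33 in the authors' deposited table, with a PPDE of 0.981, and stood at -0.41 with a PPDE of 0.901, under the limit, in the fit of bound genes. Reads of RPL24 can be shared with its pseudogenes, so its value is uncertain. RPL7L1, a nucleolar relative of RPL7, fell to -0.27 in d3b, and the authors' deposited table also called it in each other mutant over WT, from -0.21 (d0x and d3a) to -0.46 (d2), and in WT over EV at 0.50. It stood at -0.36 with a PPDE of 0.369 in the fit of bound genes. NPTX1 and RPL7L1 are the genes that the authors' deposited table calls in all 7 comparisons, which share WT.

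**Figure D2:**
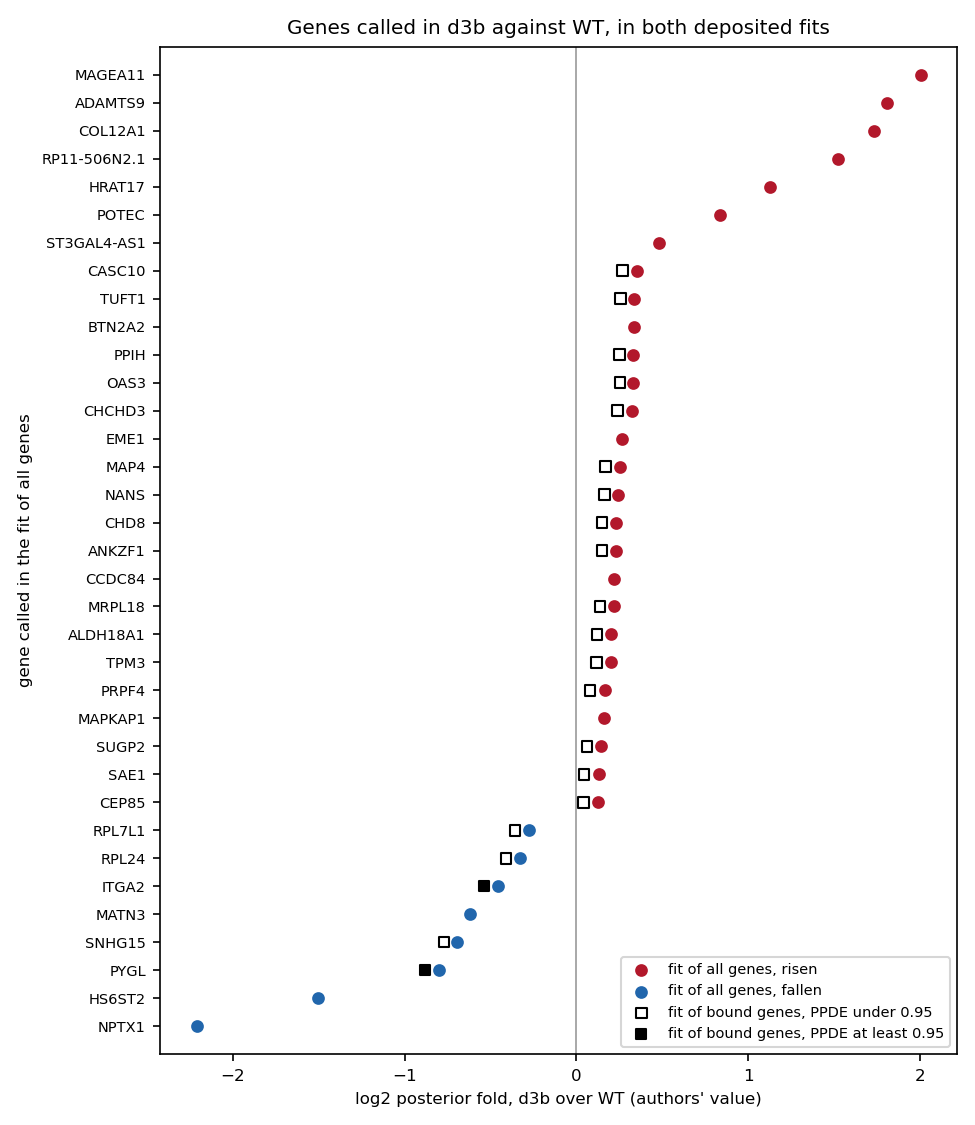
Log2 posterior fold of d3b over WT (horizontal axis) for 35 of the 36 genes called in the fit of all genes (vertical axis, one gene per line). Filled circles give that fit, red for risen and blue for fallen, and squares the fit of bound genes, filled where the gene was called there; genes without a square are not in the bound table or have no value in it. Each square lies to the left of its circle, and only those of PYGL and ITGA2 are filled.

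Among risen genes the largest fold was that of MAGEA11, a melanoma antigen family member on the X chromosome known as a coregulator of the androgen receptor, at 2.00 in the authors' deposited table. The next were ADAMTS9, a secreted protease that cleaves proteoglycans, at 1.81 and COL12A1, a collagen that associates with fibrils, at 1.74 in the authors' deposited table. RP11-506N2.1, a transcript known by its clone name, stood at 1.52 and HRAT17, a long noncoding RNA, at 1.13 in the authors' deposited table. None of these 5 is in the bound table. In WT over EV the authors' deposited table had MAGEA11 at -0.21 and ADAMTS9 at 0.11, neither called, whereas COL12A1 at -1.29 and HRAT17 at -1.06 had fallen. ADAMTS9 also rose in d4 over WT, to 1.12 in the authors' deposited table, and MAGEA11 was called in no other comparison. POTEC, one of the POTE ankyrin genes whose near-identical copies can share reads, stood at 0.84, and the antisense transcript ST3GAL4-AS1 at 0.48 in the authors' deposited table. Whether reads were counted by strand is not given in the sources used here, so that ST3GAL4-AS1 cannot be told apart from its sense partner.

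The other 21 risen genes had folds between 0.13 and 0.35. They included PPIH at 0.33 and PRPF4 at 0.17, which are partners in the U4/U6 particle, CCDC84 at 0.22, a protein of the minor spliceosome, and SUGP2 at 0.15 in the authors' deposited table. CHCHD3, of the complex that shapes mitochondrial cristae, stood at 0.32, MRPL18, a mitochondrial ribosomal protein, at 0.22 and ALDH18A1, which makes the precursor of proline, at 0.20 in the authors' deposited table. For PPIH, PRPF4, MRPL18 and ALDH18A1 the sign in d4 over WT was the opposite, at -0.41, -0.40, -0.42 and -0.22 in the authors' deposited table, each called. It was also the opposite, with a call, in d2 over WT for PPIH (-0.35), PRPF4 (-0.30) and ALDH18A1 (-0.28) and in d3a over WT for MRPL18 (-0.18) in the authors' deposited table. In the fit of bound genes the d3b folds of PPIH, PRPF4, MRPL18 and ALDH18A1 were 0.25, 0.08, 0.14 and 0.12, none called. The median difference between the fits, all genes minus bound genes, was 0.082 in d3b and -0.0744 in d4. It widens the opposition of d3b and d4 in the fit of all genes. MAPKAP1, a subunit of mTOR complex 2, stood at 0.16 in the authors' deposited table. MAP4, which binds microtubules, stood at 0.25, TPM3, a tropomyosin, at 0.20, and the centrosomal CEP85 at 0.13 in the authors' deposited table. TUFT1 rose to 0.34, was called in d0x at 0.44 and in d2 at 0.56, and fell in WT over EV to -0.65 in the authors' deposited table.

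Further risen genes were CASC10 at 0.35, the butyrophilin BTN2A2 at 0.34, OAS3, an interferon-induced sensor of double-stranded RNA, at 0.33, and EME1, part of a DNA junction nuclease, at 0.26 in the authors' deposited table. For CASC10 too the sign in d4 over WT was the opposite, at -0.43 with a call. Its d3b fold in the fit of bound genes was 0.27 without a call. NANS, which makes sialic acid, stood at 0.24, the chromatin remodeller CHD8 at 0.23, ANKZF1, which acts on stalled ribosomes, at 0.23, and SAE1, a subunit of the SUMO-activating enzyme, at 0.13 in the authors' deposited table.

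**Figure D3:**
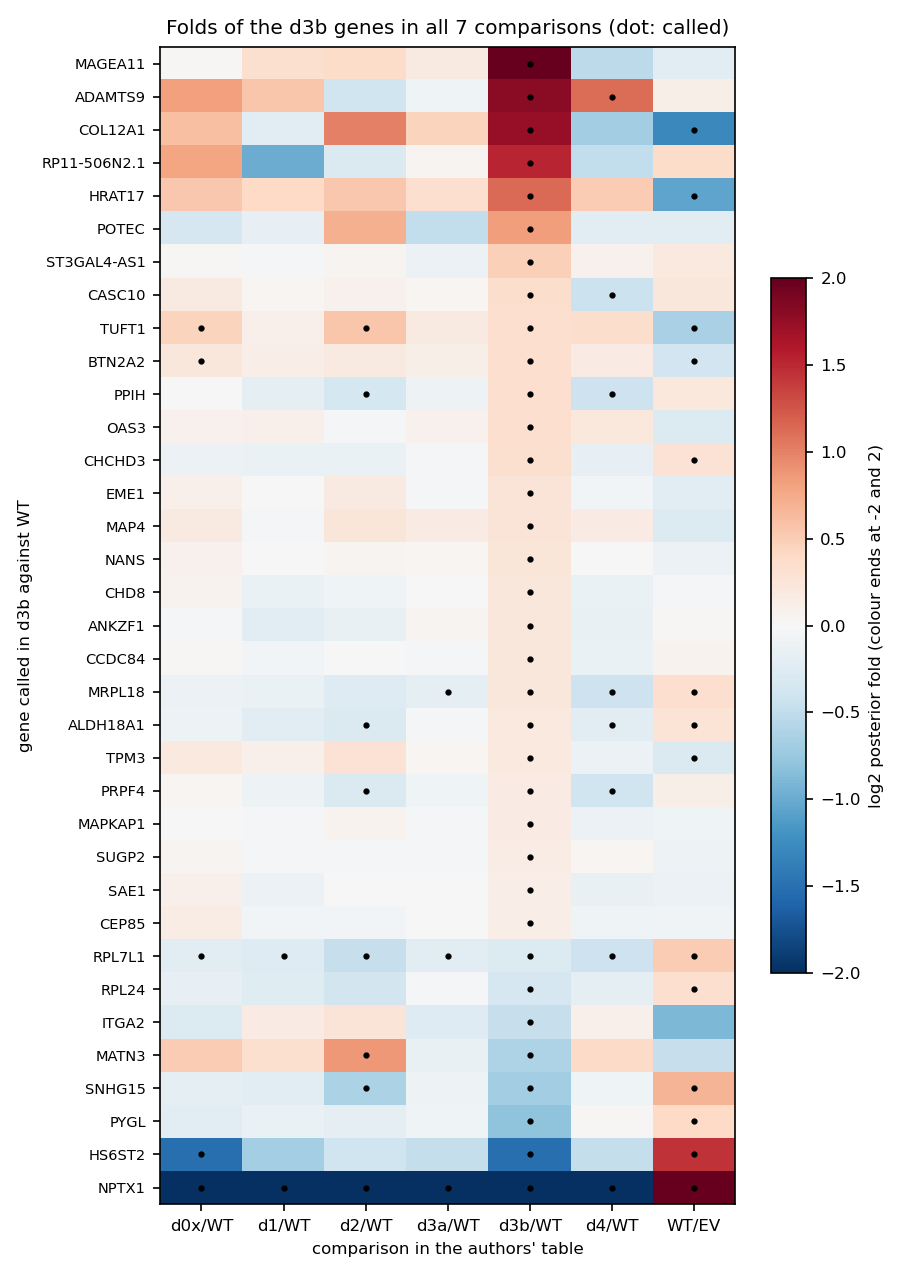
Log2 posterior folds (colour, red above 0 and blue below, with the scale ending at -2 and 2) of 35 of the 36 genes called in d3b against WT (lines) in the 7 comparisons of the authors' table (columns). A black dot marks a call; the rows of NPTX1 and RPL7L1 have a dot in all 7 columns, and MAGEA11 in the d3b column alone.

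Just under the limit in the authors' deposited table lay the kinase gene MTOR at 0.26 with a PPDE of 0.941, TRAPPC10 at 0.19 with 0.925, the nucleolar EBNA1BP2 at 0.40 with 0.922, STARD13 at 0.37 with 0.920, SFTA1P at 0.54 with 0.916 and AGPAT4 at 0.29 with 0.903. HHIP, which binds hedgehog ligands, stood at -1.32 with a PPDE of 0.859, and in the authors' deposited table DUSP3, SNRPGP2 and CYB5A had PPDE values of 0.837, 0.834 and 0.828. Left out between these are 3 transcripts known by clone names alone, 2 of them among the 8 genes with a PPDE from 0.90 to under the limit.

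The fit of bound genes called 10 genes that the fit of all genes did not. PPP2R2A, a regulatory subunit of the phosphatase PP2A, stood at -0.68 and PHLDA1 at -0.46, each with a PPDE of 1.00 in the authors' deposited table of bound genes. DSP, the desmosomal plaque protein desmoplakin, fell by 0.73, RPL22L1, a paralog of the ribosomal protein RPL22, by 0.71, the sushi-repeat protein SRPX by 0.39, RP11-166D19.1 by 0.32 and NUDT3 by 0.27 on the log2 scale in the authors' deposited table of bound genes. Both risen genes were STARD13, an activator of small GTPases, at 0.29 and TRABD2A, a membrane protease, at 0.26 in the authors' deposited table of bound genes. In the fit of all genes the same 10 genes had the same sign, with PPDE values of at most 0.920 (STARD13) in the authors' deposited table. The offset between the fits was too small to reverse these signs. The next highest PPDE there was 0.49975 (RPL22L1), and TRABD2A, NUDT3 and RP11-166D19.1 had 0.0302, 0.002 and 0.00195. RPL22L1 was near 0 in the other mutants, between -0.09 and 0.05 over WT in the fit of all genes of the authors' deposited table. In d3b it stood at -0.62 in that fit, with a PPDE of 0.49975 and no call.

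The 26 gene lists, chosen with earlier results of these data known, held 630 tested genes, of which 4 were called (0.635%, beside 0.196% of the 16312 tested protein-coding genes). The 4 are COL12A1, ITGA2, OAS3 and RPL24, each the single called member of its list, and the other 22 lists had none. WDR5 and the complexes it scaffolds had 0 called genes of 27, with a median fold of 0.08 (log2), beside 0.06 over all tested genes. Their second-highest PPDE was 0.00056, that of the methyltransferase gene SETD1B at -0.34, and the related SETD1A stood at 0.27 in the authors' deposited table. None of 31 MYC cofactor genes (median 0.10) or 13 MYC network genes (median 0.05) was called. RUVBL1, an ATPase of chromatin remodelling complexes, had the highest PPDE of these, 0.0368, at 0.29 in the authors' deposited table.

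Ribosomal protein genes had a lower median than all tested genes. Of 77 tested members 1 fell and none rose, with a median of -0.06, which was 0.12 below that of all genes. Of 69 with a value in the fit of bound genes 0 were called, with a median of -0.14, which was 0.15 below that of all bound genes. The 46 genes of the large subunit had a median of -0.09, with 28 below 0, and the 31 of the small subunit one of 0.12, with 14 below 0. Single values ran from -0.48 (RPS10, PPDE 0.00928) to 0.35 in the authors' deposited table. These genes have many pseudogenes that can share their reads, and the part of that in the values was not tested.

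Other growth functions that MYC is known to act on had medians that are given beside 0.06 over all tested genes and 0.08 over protein-coding genes. Ribosome biogenesis and nucleolar genes had a median of 0.15 with 0 of 40 called, G1/S and DNA replication genes 0.14 with 0 of 28, mitochondrial biogenesis genes 0.19 with 0 of 23, and nucleotide and polyamine synthesis genes 0.08 with 0 of 25. POLR1A, the catalytic subunit of RNA polymerase I, stood at 0.29 (PPDE 0.0359), the mitochondrial matrix protein C1QBP at 0.32 (PPDE 0.0287), and the replication factor MCM10 at 0.18 (PPDE 0.0147) in the authors' deposited table. These 4 medians were 0.07, 0.09, 0.12 and 0.02 in the fit of bound genes, beside 0.01 over all bound genes.

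Extracellular matrix genes had 1 risen member of 36, COL12A1, and a median of 0.11. The collagen chains COL6A3 and COL1A2 stood at -0.49 and -0.51 in the authors' deposited table without a call. Among 22 cell adhesion genes ITGA2 was the called member and the median was -0.07. The protocadherin PCDHB5 of that list had a fold of -2.38 with a PPDE of 0.670 in the authors' deposited table. Interferon and antigen presentation genes had 1 risen member of 30, OAS3, with a median of 0.14. STAT2, a transcription factor of the interferon response, stood at 0.26 (PPDE 0.0867) and OAS2, a close relative of OAS3, at -1.08 (PPDE 0.00250) in the authors' deposited table. The ATF4 and unfolded protein response list (0 of 18 called) had a median of -0.07, p53 targets (0 of 18) 0.04, and G2/M genes (0 of 24) 0.06.

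Other lists had no called member either. Their medians were 0.09 for translation factors and tRNA synthetases (25 genes), 0.12 for glycolysis, glutamine and one-carbon metabolism (26), 0.15 for cholesterol synthesis (18), 0.13 for actin and SRF/YAP targets (19), 0.05 for CDK inhibitors and growth arrest (21) and 0.15 for immediate early and AP-1 genes (20). Cell identity lists had medians of -0.10 for adrenergic neuroblastoma (17 genes with a value of 22), 0.04 for mesenchymal neuroblastoma (22), 0.11 for Schwann and neural crest (14), 0.16 for epithelial cells (13) and 0.44 for immune cells (13). The immune marker CD68 and CD3E and the glial marker S100B had folds held in common by sets of at least 10 genes. The 13 immune cell genes ran from -1.16 to 2.48, with a highest PPDE of 0.0018, and 1 had a value in the fit of bound genes. Their read numbers are unknown, and the median of 0.44 is not taken as a shift of that list. Genes kept as a sign of RNA quality had 0 of 20 called and a median of 0.15, which joins 3 kinds of gene. The 9 histone genes ran from 0.24 to 0.50 (median 0.36), all above 0 and of the size of many risen calls, the 9 mitochondrial genes from -0.20 to 0.21, and the nuclear noncoding MALAT1 and NEAT1 stood at 0.06 and 0.08. These values are from the authors' deposited table, and their part in the risen calls was not tested.

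**Figure D4:**
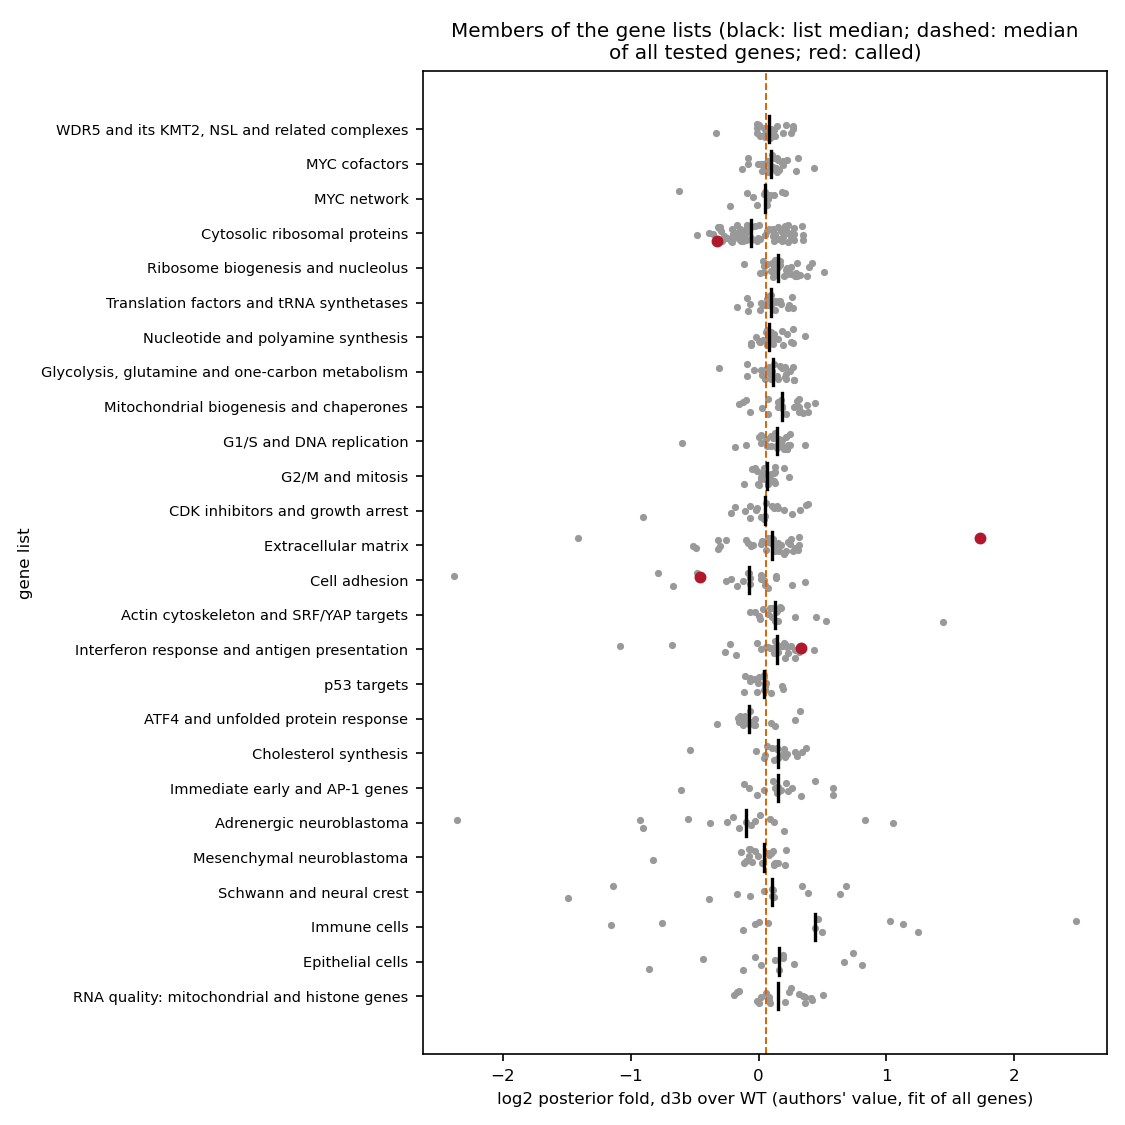
Log2 posterior folds of d3b over WT in the fit of all genes (horizontal axis) for the tested members of the 26 gene lists (lines); points are genes, red where called, black bars list medians and the dashed line the median of all tested genes, 0.06. The 4 red points are RPL24, COL12A1, ITGA2 and OAS3, and the bar of immune cells, at 0.44, lies farthest from the dashed line. The 13 immune cell genes are widely spread, from -1.16 to 2.48, with a highest PPDE of 0.0018.

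Of the 5 largest risen and 5 largest fallen called genes of WT over EV, NPTX1 alone was called in d3b. Only genes with values in every comparison and without clone-type symbols were taken. Of the risen genes, GALNT18, which starts O-glycans, stood at 4.58 in WT over EV and 0.05 in d3b over WT in the authors' deposited table. For the chemokine CCL5 these folds were 4.52 and 0.62, for the sarcomeric actinin ACTN2 3.69 and -0.27, and for PLCXD3 3.33 and 0.01 in the authors' deposited table. Of the fallen genes, SERPINB2, an inhibitor of plasminogen activators, stood at -8.71 and 0.0045 and the cyclin CCND2 at -7.04 and -0.60 in the authors' deposited table. SLFN11 stood at -6.35 and -0.37 and the desmosomal cadherin DSG2 at -6.28 and -2.48 in the authors' deposited table. None of these 8 was called in d3b, and no PPDE exceeded 0.00201. The missing calls do not show unchanged expression, since DSG2 at -2.48 was uncalled too. In d0x over WT GALNT18 at -3.17 and CCL5 at -3.04 had no call either (PPDE 0.837 and 0.682). In d2 over WT the same table had ACTN2 at -1.75 and PLCXD3 at -2.24, and in d0x over WT at -0.91 and -1.77, all called. Both comparisons of each pair use the same WT libraries, so the values are given side by side without a measure of likeness.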

How the data were processed

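RNA was sequenced from 32 libraries in 8 groups of 4. The authors deposited 2 tables covering 7 comparisons. Per the file headers, each gives a log2 posterior fold and a PPDE, a probability from 0 to 1, from a Bayesian model, with no value for genes without reads. The submitters' processing notes name DESeq, R 3.3.1, edgeR 3.16.5, STAR 2.5.2a and, as the build, GRCh37. Their roles are not given. Library scaling and depth are not given in the sources used here. The deposited number of calls per gene equalled the PPDE values of at least 0.95 in 58317 of 58317 genes.

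Genes were counted and medians taken in Python 3.11.15 with pandas 2.3.3, with code tested on simulated data. No test was run beyond the authors' calls. Gene types are from GENCODE 29 by symbol (34 of 36 called genes, 25325 of 37690 tested genes matched). Members, lists and rules were chosen with earlier results of these data known. A few genes that the rule names are not reported here. The rule names, by PPDE, up to 15 called genes in each direction (8 fell), the 10 next by PPDE without clone-type symbols, MYC, WDR5, the 5 largest risen and fallen genes of WT over EV with values in every comparison, and up to 3 members per list by PPDE. The other 13 risen genes, the genes called in the fit of bound genes, and the split of the RNA quality list were added after values were seen. Alternatives were other limits on PPDE and fold, protein-coding genes, genes with values in every comparison, centring, and the fit of bound genes.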

Additional observations from a re-analysis of the deposited data

How the results depend on the processing

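No paired analysis was possible because the tables hold no values per library, and leaving out a replicate was not run for the same reason. The 36 calls (28 risen, 8 fallen) were 44 (36 and 8) at a PPDE of 0.90, 27 (21 and 6) at 0.99, 29 (21 and 8) at an absolute log2 fold of at least 0.2 and 32 (25 and 7) among protein-coding genes. They were 36 among genes with a value in every comparison, and 36 without genes whose fold is shared by at least 10 genes, an alternative chosen after seeing the data. At an absolute log2 fold of at least 1 they fell to 7 (5 risen and 2 fallen), by construction. Over genes with a value in both fits, 22 calls (17 risen and 5 fallen) became 12 (2 and 10) in the fit of bound genes, 13 (2 and 11) there at a PPDE of 0.90 and 8 (0 and 8) at 0.99, limits chosen after seeing the data. The cause was not tested. Of the 32 genes called in either fit, 2 were called in both, 20 lost their call and 10 gained one, with no sign reversed. The near-constant offset between the fits left these signs little room to reverse. The median fold of 0.0598 was 0.0661 without shared folds, 0.0804 for protein-coding genes, 0.0081 in the fit of bound genes, and 0 when centred. List medians stood above 0 in 22 of 26 lists, in 18 when centred and in 16 in the fit of bound genes. Precision is limited by unknown depth.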

Other observations

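Some large folds carried no call. The myosin light chain gene MYL9 stood at 1.44 with a PPDE of 0.00176, the protocadherin gene PCDHB5 at -2.38 with 0.670, and the hedgehog-binding HHIP at -1.32 with 0.859 in the authors' deposited table.

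Folds of d3b over WT spanned a narrow range in the fit of bound genes, with quartiles of -0.09 and 0.10. The width between quartiles was 0.188, beside 0.201 in d3a, 0.204 in d1, 0.262 in d0x, 0.369 in d4 and 0.448 in d2 over the same WT libraries, and 0.4996 in WT over EV. In the fit of all genes the width was 0.544 in d3b and 0.486 in d3a, the reverse order. These widths cover 37690 and 38176 genes, most of them not bound, so fit and gene set cannot be told apart.

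Of all tested genes 7229 of 37690 (19.2%) had a fold in the fit of all genes that was held in common by at least 10 genes. The commonest value, 1.25, was held by 876 genes. None of the 36 called genes and 181 of the genes with values in both fits (1.98%) had such a fold.

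The median difference between the fits, all genes minus bound genes, was 0.082 in d3b, -0.0022 in d0x, -0.0758 in d1, 0.0121 in d2, -0.0439 in d3a and -0.0744 in d4 over WT, and -0.038 in WT over EV.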
